A study of Sus scrofa with 4 samples.

Results

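The miRNAs examined here come from the imprinted DLK1-DIO3 region, and they were measured by small RNA sequencing of longissimus dorsi, a long back muscle, in pigs. Members were the table rows that carry 1 of 26 miRNA names of this region, arm suffix aside, and that summed to 20 or more reads over the 4 libraries. This gave 12 of the 271 listed miRNAs, namely miR-127, miR-136, miR-299, miR-323, miR-369, miR-370, miR-382, miR-411, miR-432-5p, miR-493-5p, miR-493-3p and miR-758. The members were thus chosen by their name and their read sum, and that sum is a description with no test. Of the 26 names, 15 had a row, in 17 rows, and 5 rows fell under the minimum. Just inside it lay miR-493-3p with 21 reads and miR-493-5p with 25, and just outside it miR-376a-5p with 11 and miR-376c with 4. miR-487b and miR-381 had 3 reads each and miR-432-3p had 1.

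The study set 2 indigenous Chinese breeds, Diannan Small Ear and Tibetan, against 2 introduced breeds, Landrace and Yorkshire. Each breed had 1 library of total RNA, so a type, indigenous or introduced, had 2 libraries. The labels give no age, sex, genotype or batch, and do not say whether a library held 1 animal or a pool. The p-values thus cover no more than the spread among 4 libraries, and some of that spread may be technical.

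The DLK1-DIO3 region is imprinted in mammals: DLK1, RTL1 and DIO3 are expressed from the paternal chromosome, and the long noncoding RNA MEG3 and the miRNAs from the maternal one. One group of the miRNAs lies antisense to RTL1, and in mouse miR-127 and miR-136 pair with the Rtl1 transcript and repress it. A much longer group, the miR-379/miR-656 block, lies downstream, and in mouse skeletal muscle the region's noncoding RNAs are expressed in satellite cells, the muscle stem cells, and decline with differentiation. In the RefSeq gene table of the Sscrofa11.1 pig assembly, 4 of the 11 member names matched a gene. In that table the order runs from DLK1 over MEG3 and MIR493 to RTL1, and MIR127, MIR432 and MIR136 all lie within the span of RTL1. The table was used for names and order alone, since no source used here names the build behind the counts. By position known from human and mouse, 3 members were assigned to the RTL1 antisense group (miR-127, miR-136, miR-432-5p) and 6 to the miR-379/miR-656 block (miR-299, miR-323, miR-369, miR-382, miR-411, miR-758). The remaining members were both arms of miR-493, which lies between MEG3 and RTL1, and miR-370, next to MEG8.

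Total reads ranged from 2507082 (Landrace) to 5346460 (Yorkshire). Each library was most like 1 of the other type. Across the 207 miRNAs with 20 or more reads outside the cluster (not independent of each other), Pearson's r of log2(TMM-scaled CPM + 1) was 0.981 for Landrace with Diannan Small Ear and 0.975 for Yorkshire with Tibetan. For the other 4 combinations it was 0.792 to 0.799, and an exchange of labels between the types cannot be told apart from such a likeness. CPM are counts scaled to a common library size, and TMM scaling is a correction for libraries dominated by a few miRNAs. It changed the library sizes by factors from 0.345 (Yorkshire) to 2.21 (Landrace), so levels depend on it, and ratios within a library, which do not, are given first. The striated muscle list had 7 or 8 of its 8 rows detected in each library, with 58337 CPM of total reads in Diannan Small Ear and 73609 in Landrace, against 898646 in Tibetan and 966568 in Yorkshire. That difference was carried by miR-1 and miR-206. miR-133a-5p, miR-499-5p and miR-499-3p went the same way at far lower counts. miR-499-5p had 239 reads in Diannan Small Ear and 1300 in Tibetan, and 456 in Landrace and 1088 in Yorkshire. miR-133a-5p had 301, 2188, 308 and 1039 reads, in the same order. By reads and by CPM of total reads miR-133a-3p went the other way, as did miR-133b and miR-208b. miR-133a-3p had 243554 reads in Diannan Small Ear and 103226 in Tibetan, and 167451 in Landrace and 59941 in Yorkshire. On the TMM scale miR-133a-3p and miR-133b were no longer lower in Yorkshire than in Landrace.

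miR-127 made up almost all reads of the cluster in the Diannan Small Ear and Landrace libraries and less than the other members together in the Tibetan and Yorkshire libraries. It had 10693 reads in Diannan Small Ear and 320 in Tibetan, and 9110 in Landrace and 40 in Yorkshire. The 11 other members together had 255, 360, 186 and 55 reads, in the same order. Each type thus had 1 library rich and 1 poor in miR-127, and Tibetan, poor in miR-127, had the most reads of the other members.

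As a share of all member reads, miR-127 held 97.7% in Diannan Small Ear (95% Wilson interval 97.4 to 97.9) and 47.1% in Tibetan (43.3 to 50.8), and 98.0% in Landrace (97.7 to 98.3) and 42.1% in Yorkshire (32.7 to 52.2). All intervals here cover nothing beyond counting error, as amplified reads are not independent molecules. The mean share was 72.4% ± 35.8 (SD, n = 2) in indigenous and 70.1% ± 39.5 (n = 2) in introduced breeds. The difference of 2.31 percentage points was far smaller than the spread within each type (exact permutation test, two-sided, p = 1; the smallest p that 2 against 2 libraries allow is 0.333). Leaving out Diannan Small Ear or Yorkshire turned it to -23.0 or -25.6, and leaving out Tibetan or Landrace raised it to 27.6 or 30.3.

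**Figure D1:**
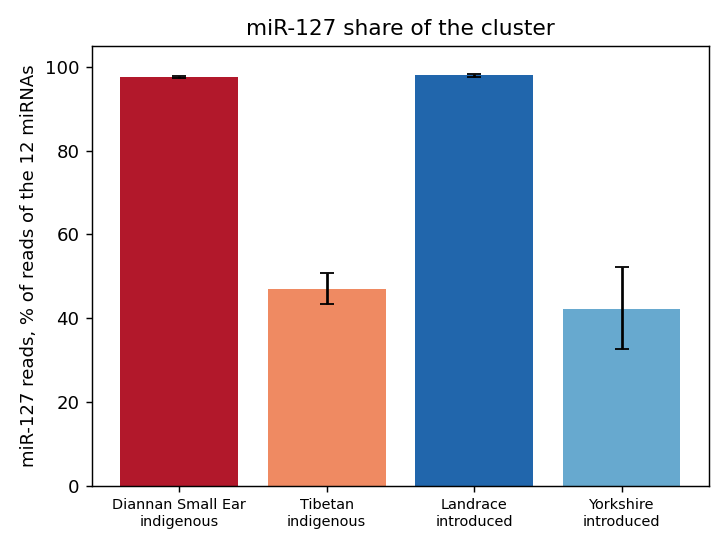
Reads of miR-127 as a percentage of the reads of all 12 cluster miRNAs in each library, with 95% Wilson intervals as bars. Diannan Small Ear and Landrace stand at 97.7% and 98.0%, Tibetan and Yorkshire at 47.1% and 42.1%, so each type holds 1 high and 1 low library.

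The ratio of miR-127 to the 11 other members was 41.9 in Diannan Small Ear and 0.889 in Tibetan, and 49.0 in Landrace and 0.727 in Yorkshire. Between the breeds of a type it differed 47.2-fold for Diannan Small Ear over Tibetan (95% exact counting interval 38.6 to 57.6) and 67.3-fold for Landrace over Yorkshire (42.7 to 106). Between breeds of different type the counting intervals included 1, at 0.856 for Diannan Small Ear over Landrace (0.703 to 1.04) and 1.22 for Tibetan over Yorkshire (0.775 to 1.94). With 1 library per breed, these and all breed comparisons here have no replicate check.

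The other RTL1 antisense members took a larger part of the remaining reads in the libraries rich in miR-127, but differed far less than miR-127 did. miR-136 had 28 reads in Diannan Small Ear and 11 in Tibetan, and 30 in Landrace and 2 in Yorkshire. miR-432-5p had 26, 8, 35 and 1. Both were thus highest in Landrace and lowest in Yorkshire. Together they held 21.2% of the member reads other than miR-127 in Diannan Small Ear (95% Wilson interval 16.6 to 26.6) and 5.28% in Tibetan (3.40 to 8.10), and 34.9% in Landrace (28.5 to 42) and 5.45% in Yorkshire (1.87 to 14.9). Set against the miR-379/miR-656 block, which needs no scaling, they were 4.72-fold higher in Diannan Small Ear than in Tibetan (95% exact counting interval 2.64 to 8.71) and 10.1-fold higher in Landrace than in Yorkshire (3.01 to 52.3). Between the libraries rich in miR-127 the same ratio was 2.08 times higher in Landrace (1.31 to 3.30), and between those poor in it the ratio was 1.03 for Tibetan over Yorkshire (0.285 to 5.62).

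The contrast was wider still for miR-127. Its ratio to miR-136 and miR-432-5p together was 11.8-fold higher in Diannan Small Ear than in Tibetan (6.50 to 20.4) and 10.5-fold higher in Landrace than in Yorkshire (2.03 to 34.3).

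miR-369, which in human cells was found to act on translation of tumour necrosis factor mRNA, had the most reads after miR-127 in 3 of the 4 libraries, and held a larger part of the rest in the libraries poor in miR-127. It had 49 reads in Diannan Small Ear and 168 in Tibetan, and 33 in Landrace and 30 in Yorkshire. This was 19.2% of the member reads other than miR-127 in Diannan Small Ear (14.9 to 24.5) and 46.7% in Tibetan (41.6 to 51.8), and 17.7% in Landrace (12.9 to 23.9) and 54.5% in Yorkshire (41.5 to 67). Its ratio to the 10 remaining members was 3.68 times lower in Diannan Small Ear than in Tibetan (2.50 to 5.46) and 5.56 times lower in Landrace than in Yorkshire (2.75 to 11.2). miR-127 had 218 reads for each read of miR-369 in Diannan Small Ear and 276 in Landrace, against 1.90 in Tibetan and 1.33 in Yorkshire.

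**Figure D2:**
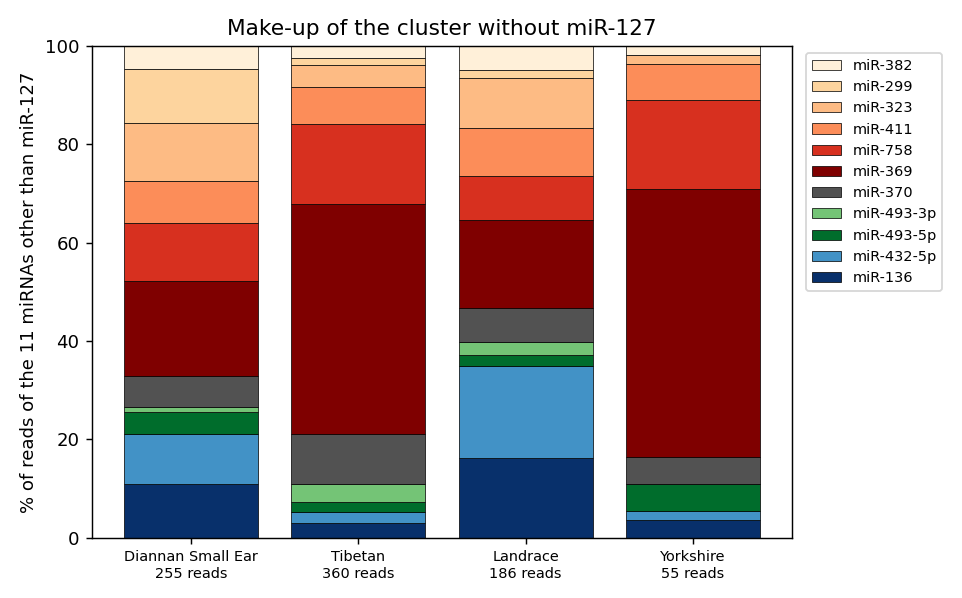
Make-up of the cluster without miR-127: percentage of the reads of the 11 other miRNAs taken by each, per library, with the read totals under the bars. miR-369 takes 46.7% and 54.5% in Tibetan and Yorkshire, and miR-136 with miR-432-5p takes 21.2% and 34.9% in Diannan Small Ear and Landrace.

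The other members of the miR-379/miR-656 block had low counts. miR-758, which in human and mouse cells represses the cholesterol transporter ABCA1, had 30 reads in Diannan Small Ear and 59 in Tibetan, and 17 in Landrace and 10 in Yorkshire. miR-411, which in mouse myoblasts represses the myogenic factor YAF2, had 22, 27, 18 and 4 reads, in that order. Both had the most reads in Tibetan and the fewest in Yorkshire, as did miR-370 outside the block.

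miR-323 had 30, 16, 19 and 1 reads and miR-382 had 12, 9, 9 and 1. miR-299 had 28 reads in Diannan Small Ear and 5 in Tibetan, and 3 in Landrace and 0 in Yorkshire. It was the member with the widest gap between Diannan Small Ear and Landrace. It passed the read minimum only through Diannan Small Ear, so its ratios to that library are a description. miR-370, which in human liver cells represses CPT1A, an enzyme of mitochondrial fatty acid import, had 16, 37, 13 and 3 reads. miR-493-5p had 11, 7, 4 and 3 reads, and the other arm of its precursor, miR-493-3p, had 3, 13, 5 and 0. The 5p arm took 78.6% of the reads of both arms in Diannan Small Ear (52.4 to 92.4), 35% in Tibetan (18.1 to 56.7) and 44.4% in Landrace (18.9 to 73.3). These intervals overlap, which does not exclude a difference, and the arm shares were not tested. Yorkshire had 3 reads of miR-493 in all.

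On the TMM scale the level of miR-127 was 1784 CPM in Diannan Small Ear and 90.5 in Tibetan, and 1642 in Landrace and 21.7 in Yorkshire. It ranked 22nd, 80th, 21st and 113th by reads among the 271 miRNAs of its library. Every other member stayed under 50 CPM in every library. miR-369 ranged from 5.95 CPM (Landrace) to 47.5 (Tibetan), with 8.17 in Diannan Small Ear and 16.3 in Yorkshire. miR-758 ranged from 3.07 (Landrace) to 16.7 (Tibetan) and miR-370 from 1.63 (Yorkshire) to 10.5 (Tibetan). The remaining 8 members ran between 0 and 7.63 CPM. A count of 0 allows up to 3 reads, which was 1.63 CPM on the TMM scale in Yorkshire, the library where 2 members were at 0. In bulk tissue, fewer cells of a type and less RNA per cell cannot be told apart.

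**Figure D3:**
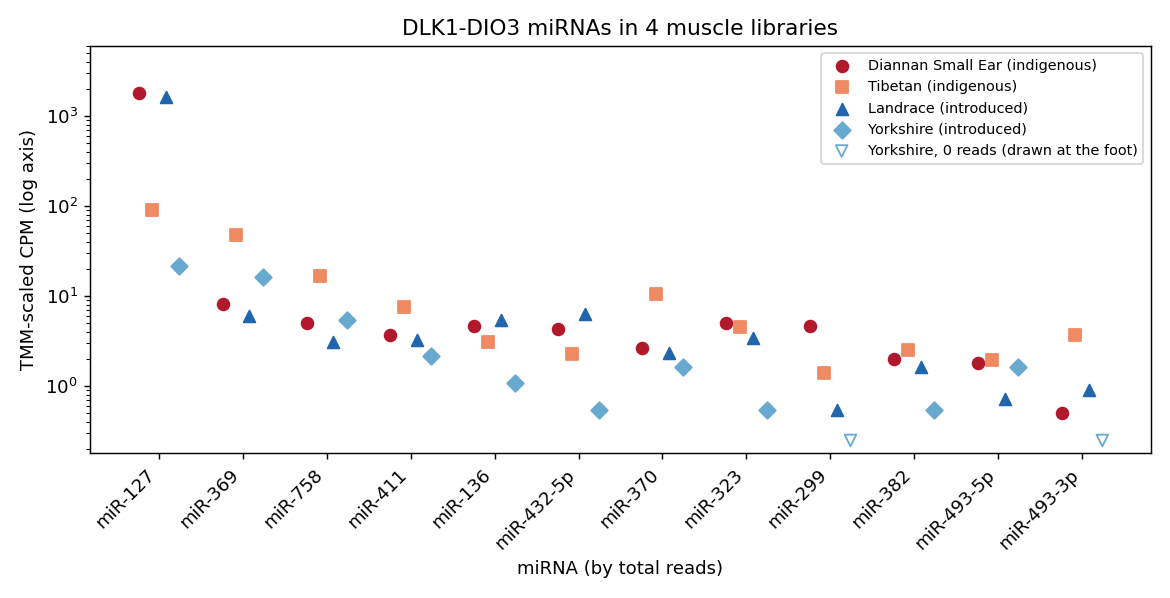
TMM-scaled CPM (log axis) of the 12 cluster miRNAs in the 4 libraries, 1 point per library, with members at 0 reads drawn as open triangles at the foot. miR-127 spans 21.7 to 1784 CPM, and the other 11 stay under 50 CPM. Tibetan is the highest library for miR-369, miR-758, miR-370, miR-411, miR-493-3p, miR-382 and miR-493-5p.

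Between Diannan Small Ear and Tibetan, miR-127 and several members of the miR-379/miR-656 block differed in opposite directions. miR-127 was 19.7-fold higher in Diannan Small Ear (95% exact counting interval 17.6 to 22.1) and miR-299 was 3.30-fold higher (1.26 to 11). The read minimum, which miR-299 passed only through Diannan Small Ear, favours such an excess. miR-369 was 5.81-fold lower (4.2 to 8.16), miR-370 3.92-fold (2.13 to 7.55), miR-758 3.33-fold (2.11 to 5.36), miR-411 2.08-fold (1.14 to 3.83) and miR-493-3p 7.34-fold (2.02 to 40.2). The minimum favours this last difference as well, since miR-493-3p, at 21 reads in all, needed its 13 Tibetan reads to pass. The other 5 members differed less than 2-fold, and their intervals included 1. The tested miRNAs, here and in the other breed comparisons, leave out miR-299 and both arms of miR-493, which fell under a low-count filter. Of the 12 members 2 were at least 2-fold higher and 5 at least 2-fold lower in Diannan Small Ear, against 27.3% and 36.6% of all tested miRNAs. With total-count scaling 4 were higher and 4 lower, against 37.6% and 32.5% of all tested miRNAs, among them miR-136 (2.03-fold) and miR-432-5p (2.59-fold) on the higher side, and miR-411 no longer reached 2-fold.

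Between Landrace and Yorkshire the miR-127 ratio was larger and more members went with it. miR-127 was 75.6-fold higher in Landrace (55.5 to 106), miR-432-5p 11.6-fold (1.95 to 472), miR-323 6.31-fold (1.00 to 262), miR-136 4.98-fold (1.26 to 43.0) and miR-382 2.99-fold (0.414 to 131). miR-369 was 2.74-fold lower in Landrace (1.61 to 4.63), and miR-493-5p, with 4 reads against 3, was 2.26-fold lower (0.331 to 13.3). Of the 10 members with reads in both libraries 5 were at least 2-fold higher and 2 at least 2-fold lower, against 32.3% and 34.4% of all tested miRNAs. Total-count scaling, which makes each of these ratios 6.42 times larger, put all 10 at least 2-fold higher in Landrace, with miR-127 at 486-fold and miR-369 at 2.35-fold. It moved most miRNAs the same way: 73.4% of those tested were then at least 2-fold higher and 7.29% at least 2-fold lower. The direction of miR-369 between these libraries thus depended on the scaling, whereas its lower ratio to the other members did not.

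Between the high-miR-127 libraries, Diannan Small Ear and Landrace, few single members differed 2-fold with TMM scaling. miR-127 was 1.09-fold higher in Diannan Small Ear (1.06 to 1.12), and with total counts 1.53-fold lower. miR-299 was 8.63-fold higher in Diannan Small Ear (2.67 to 44.4), or 5.20-fold with total counts (1.61 to 26.7). As it passed the read minimum only through Diannan Small Ear, the choice of members favoured this excess. miR-493-5p was 2.54-fold higher, with an interval of 0.754 to 11. The choice of members favoured that excess too, since miR-493-5p, at 25 reads in all, needed its 11 Diannan Small Ear reads to pass. Neither miR-299 nor miR-493-5p is among the tested miRNAs, and no tested member differed 2-fold with TMM scaling. They were the 2 of 12 members at least 2-fold higher, and 0 were at least 2-fold lower, against 4.08% and 4.59% of all tested miRNAs. With total counts 1 was at least 2-fold higher and 2 at least 2-fold lower, against 2.04% and 30.6%. The lower ones were miR-432-5p, 2.42-fold (1.41 to 4.18), and miR-493-3p, 2.99-fold (0.582 to 19.3). The smaller part that miR-136 and miR-432-5p took beside the miR-379/miR-656 block in Diannan Small Ear, given above, needs no scaling.

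Between Tibetan and Yorkshire the ratio lay above 1 for each of the 10 members with reads in both libraries. miR-127 was 4.17-fold higher (2.99 to 5.94), miR-369 2.92-fold (1.97 to 4.46), miR-758 3.07-fold (1.56 to 6.74), miR-411 3.51-fold (1.22 to 13.8), miR-370 6.42-fold (2.03 to 32.6) and miR-323 8.33-fold (1.29 to 349). The intervals included 1 for miR-136 (2.86-fold, 0.625 to 26.6), miR-432-5p (4.17-fold, 0.558 to 185) and miR-382 (4.69-fold, 0.649 to 205), and for miR-493-5p at 1.21-fold (0.277 to 7.28). Of the 10 members 9 were at least 2-fold higher in Tibetan and 0 at least 2-fold lower, against 14.6% and 9.90% of all tested miRNAs. With total counts all 10 were at least 2-fold higher, against 79.7% of all tested miRNAs, with 1.04% lower. miR-493-3p, at 13 reads against 0, was at least 2.26-fold higher by the allowance of 3 reads, whereas the bound for miR-299, at 5 reads against 0, was 0.868 and leaves its direction unknown. As miR-493-3p needed its Tibetan reads to pass the read minimum, the choice of members favoured its excess, which is a description. The median log2 ratio of the 10 was 1.94, against 0.18 over all tested miRNAs, and with total counts these were 3.45 and 1.69. In Yorkshire 10 of the 12 members had 10 or fewer reads. These 4 breed comparisons share libraries and are not independent of each other.

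**Figure D4:**
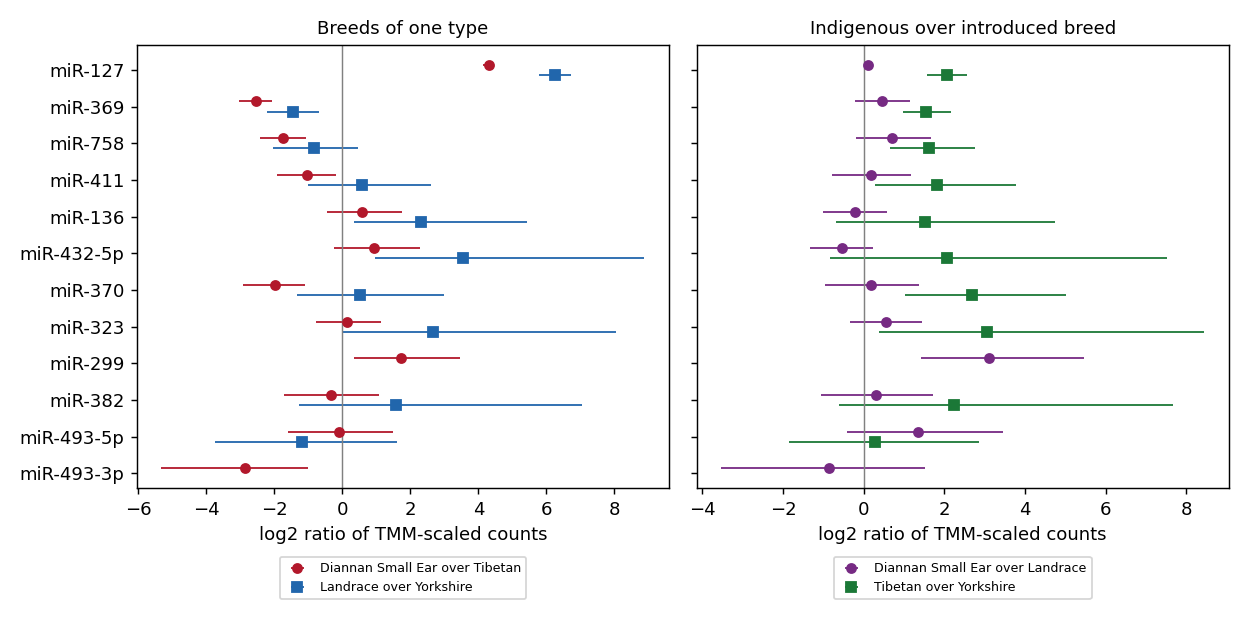
Log2 ratios of TMM-scaled counts between breeds for each member with reads in both libraries, with 95% exact counting intervals, within a type (left panel) and across types (right panel). miR-127 lies at 4.30 and 6.24 on the left while miR-369 lies at -2.54 and -1.45, and on the right the Tibetan over Yorkshire ratios lie above 0 for all 10 members plotted.

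None of the members passed the test between indigenous and introduced breeds. edgeR's quasi-likelihood test ran on 197 miRNAs, of which 9 were members; miR-299 and both arms of miR-493 fell under its low-count filter. It called 0 miRNAs in all (0% of 197) at a Benjamini-Hochberg adjusted p of 0.05, and 1 miRNA (0.508%), no member, had an unadjusted p under 0.05. DESeq2 and limma-voom called 0 as well, with 1 unadjusted p under 0.05 each and none of them a member. The biological coefficient of variation, the replicate spread that the fit estimated, was 98.6%.

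The TMM-scaled level of miR-127 averaged 937 ± 1197 CPM (SD, n = 2) over the indigenous and 832 ± 1146 CPM (n = 2) over the introduced libraries. Its log2 fold change of indigenous over introduced was 0.17 ± 2.22 (SE, edgeR adjusted p = 0.996), and the types overlapped. With total counts the estimate was -0.56 ± 2.24, and with 1 library left out it was as low as -3.34 (Diannan Small Ear left out) and as high as 5.6 (Landrace left out). The authors' deposited table gives a fold of 0.677 for miR-127 with an FDR of 2.06e-25, on means of 1232 and 1821 CPM. The 2 libraries of each type behind those means differ 26.7-fold and 486-fold in miR-127 by total counts.

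For miR-369 the means were 27.8 ± 27.8 CPM (indigenous) and 11.1 ± 7.31 CPM (introduced), a log2 fold change of 1.33 ± 1.29 (edgeR adjusted p = 0.996), and the types overlapped. The authors' deposited table gives it a fold of 3.07 with an FDR of 0.00898. These were the 2 of 12 members with an FDR under 0.05 in the authors' deposited table, where 83 of 271 rows had one. Without Tibetan the estimate of miR-369 was -0.43 ± 1.56.

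The largest estimate among tested members was that of miR-370, 6.56 ± 5.51 against 1.99 ± 0.506 CPM, a log2 fold change of 1.68 ± 0.99. miR-758 (1.36 ± 1.0), miR-323 (1.16 ± 0.99), miR-411 (1.03 ± 0.81) and miR-382 (0.94 ± 0.75) had estimates above 0 as well. The RTL1 antisense members miR-136 (0.21 ± 0.97) and miR-432-5p (-0.11 ± 1.18) lay near 0. The edgeR adjusted p was 0.996 for each of these 7. The estimate was above 0 in 8 of the 9 tested members and in 120 of 197 miRNAs, and the median was 1.03 against 0.12. With total counts 6 of 9 were above 0, at a median of 0.55 against 0.11, and miR-136 turned to -0.39 ± 2.02. With 1 library left out the median ran from 0.46 over 11 tested members (without Tibetan) to 2.13 over 12 (without Landrace). Without Tibetan, miR-370 fell to 0.40, miR-758 to 0.26 and miR-411 to 0.42. Without Yorkshire, miR-323 and miR-382 stood at 0.35 each, and without Landrace at 3.21 and 2.14.

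Summed over the 11 members other than miR-127, the level was 42.5 CPM in Diannan Small Ear and 102 in Tibetan, and 33.5 in Landrace and 29.9 in Yorkshire. Both indigenous libraries thus stood above both introduced ones, by a small margin for Diannan Small Ear. As a share of all listed reads, which total-count scaling compares, Diannan Small Ear (0.00567%) lay below Landrace (0.00742%), with Tibetan at 0.010% and Yorkshire at 0.00103%, and the types overlapped. Among the 9 tested members, the types did not overlap for 4, each higher in indigenous breeds, namely miR-323, miR-370, miR-382 and miR-411, against 8.12% of all tested miRNAs separated in that direction, and 0 members lay lower, against 5.58%. With total counts the types overlapped in all 9 tested members, and 1.52% of all tested miRNAs were separated upward and 0.508% downward. The untested miR-299 and miR-493-5p were separated upward under both scalings. The read minimum bears on such separations: miR-299 (33 indigenous and 3 introduced reads), miR-370 (53 and 16) and miR-382 (21 and 10) reached it through the indigenous libraries, and miR-493-5p (18 and 7) through neither type alone. The separations are thus a description and no support for a direction.

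**Figure D5:**
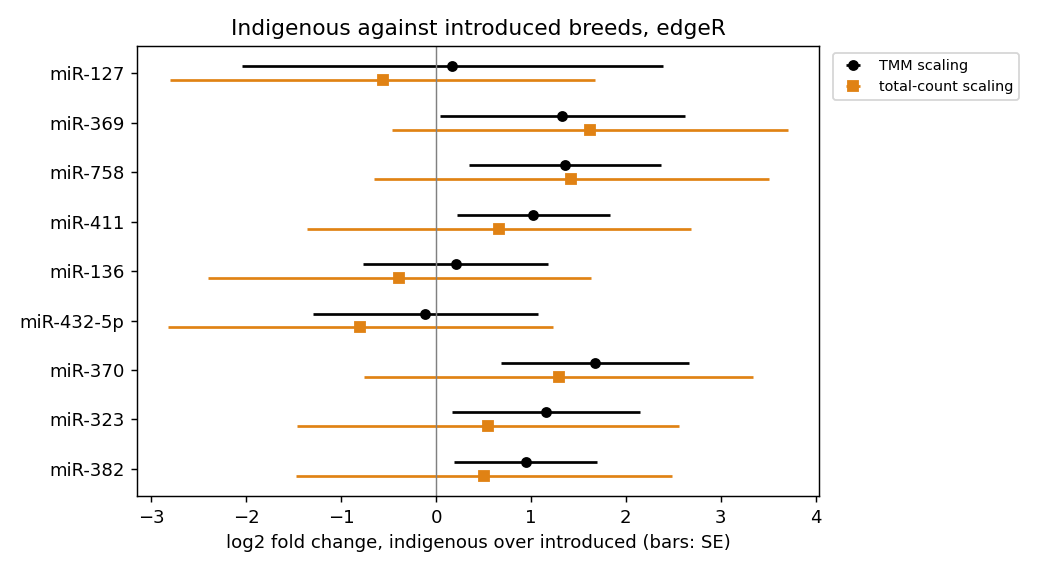
Log2 fold change of indigenous over introduced breeds for the 9 tested members by edgeR, with SE bars, under TMM and total-count scaling. With TMM 8 of 9 points lie above 0, with total counts 6 of 9, and 0 of 9 passed the test.

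The miRNAs outside the cluster whose pattern over the 4 libraries lay nearest to miR-127 were miR-191, miR-10a-5p, miR-192, miR-10b and miR-486. Likeness was the Euclidean distance between log2 CPM values centred on each miRNA's mean, and these distances ran from 1.44 to 2.13. miR-191 measured 18941 CPM in Diannan Small Ear and 488 in Tibetan, and 16210 in Landrace and 484 in Yorkshire. The nearest cluster members were miR-432-5p, at rank 33 of 218 miRNAs (distance 3.53), and miR-136, at rank 45 (4.08). The farthest were miR-758 (distance 6.46) and miR-369 (7.19). The other RTL1 antisense members were thus the cluster members nearest to miR-127, but many miRNAs from elsewhere were nearer. A prior count of 2, added before the logarithm, shrinks differences in rows with few reads. For miR-432-5p, Landrace stood above Yorkshire by a log2 ratio of 3.54 without it and 2.74 with it. The distances of low-count members from miR-127 thus depend in part on read depth.

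Marker miRNAs of other tissues were read beside these levels. The liver list had 2 of 2 rows with reads in every library and summed to 3005 reads in Diannan Small Ear and 35 in Tibetan, and 2392 in Landrace and 22 in Yorkshire, with the high and low libraries those of miR-127. miR-192 made up most of it (2989, 25, 2314 and 13 reads), while miR-122, the defining liver miRNA, had 16, 10, 78 and 9 reads. Its part in the miR-127 result was not tested. The neural list, miR-124a and miR-9, had 6 reads or fewer in each library, and miR-124a was at 0 in Diannan Small Ear and Landrace. The sums of the stromal list (9 rows, 9092 to 16987 CPM), the endothelial list (2 rows, 1817 to 3011 CPM) and the white blood cell list (4 rows, 53.9 to 97.0 CPM) each varied less than 2-fold on the TMM scale. In CPM of total reads they varied more, from 3132 to 30260 (stroma), 626 to 6429 (endothelium) and 30.3 to 119 (white blood cells). These sums hide rows that differed more. miR-143-3p held most stromal reads, with 64503 in Diannan Small Ear and 51500 in Tibetan, and 72185 in Landrace and 13641 in Yorkshire. Every other stromal row had more reads in Tibetan than in Diannan Small Ear. Between Landrace and Yorkshire these rows went both ways. miR-199a-5p had 356, 1823, 309 and 767 reads, and miR-145-5p had 222, 894, 220 and 184. The endothelial sum joins arms that went opposite ways, with 14181 reads of miR-126-5p in Diannan Small Ear and 6575 in Tibetan, against 876 and 4077 of miR-126-3p. By reads the white blood cell sum does so too. miR-142-5p had 209, 128, 140 and 69 reads, in the order of libraries used above, and miR-142-3p had 9, 86, 11 and 35. miR-150 and miR-155-5p went with miR-142-5p by reads. The erythroid list (2 rows) ranged from 67.4 CPM in Diannan Small Ear to 370 in Tibetan.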

How the data were processed

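The authors' deposited table lists whole-number read counts per miRNA and library, per the file headers. No source used here names the aligner, miRNA database or build. The authors also deposited CPM values, which equalled each count over its column total within 4.2e-05, mean signal values per type made from them, a fold column that is the ratio of those means, and p-values with FDR values, by a test that no source used here names.

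Tests started from the counts. Types were compared with edgeR 4.0.16 (filterByExpr, TMM, glmQLFit and glmQLFTest, two-sided) on the whole table, with Benjamini-Hochberg adjustment. An SE beside an edgeR log2 fold change is the size of that change over the square root of the F statistic, an approximation. The fit was tested on simulated data, where most large changes went uncalled at the spread estimated here. Limma 3.58.1 and DESeq2 1.42.0 served as alternatives. A breed ratio is a ratio of TMM-scaled counts with a 95% exact binomial interval, ratios of ratios carry a 95% exact conditional interval, and shares a 95% Wilson interval. Log2 values for likeness used a prior count of 2. The named miRNAs are all members and the 5 miRNAs outside the cluster nearest to miR-127. A further 23 names of the region, fixed in the same list, matched 0 rows and were not analysed here. Members, lists and the library pair term were chosen with earlier results of these data known.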

Additional observations from a re-analysis of the deposited data

How the results depend on the processing

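The count of miRNAs called between the types was 0 under RLE, upper-quartile and total-count scaling, without the low-count filter, with a stricter one (50 counts in 2 libraries), by DESeq2 and limma-voom, without the 5 most abundant miRNAs, and with each library left out (0 to 0). It was 1, no member, with 16 unadjusted p under 0.05 of which 4 were members, with a model term that joins Landrace to Diannan Small Ear and Yorkshire to Tibetan, which comes from the libraries' likeness and not from the labels. That term gave miR-127 a log2 fold change of 1.0 ± 0.35 (edgeR adjusted p = 0.261). No paired analysis was possible because the labels give no replicate numbers and name no shared animal, litter or batch.

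The difference in the miR-127 share ranged from -25.6 to 30.3 percentage points with 1 library left out, and was 2.46 with no read minimum and 4.16 with at least 100 reads. Members whose types did not overlap numbered 2 with total counts and 6 otherwise, all higher in indigenous breeds. Among the 9 tested members these numbers were 0 and 4. Of the 197 tested miRNAs, 3 lay higher and 1 lower with total counts, against 16 and 11 with TMM. The 6 changed in part: miR-758 replaced miR-323 with upper-quartile scaling and without the 5 most abundant miRNAs. The log2 fold change of miR-127 turned to -0.56 with total counts and -0.0038 without the 5 most abundant miRNAs, and that of miR-136 to -0.39 and -0.028. miR-432-5p turned to 0.034 with limma-voom and 0.17 with the pair term. With 1 library left out, miR-127 ranged from -3.34 to 5.6, miR-369 from -0.43 to 2.09, miR-136 from -0.59 to 1.97 and miR-432-5p from -1.04 to 2.70, while the other 5 tested members stayed above 0, from 0.26 to 3.21. A lone library is assumed there to vary like the others. The causes were not tested. Of the other single-member estimates, 95 kept their direction and stayed short of the threshold. Reads limit most members: in Yorkshire 10 of 12 had 10 or fewer.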
